A study of Mus musculus with 2 samples.

Results

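Hmgcs1, Idi1, Fdps, Fdft1, Sqle, Lss, Cyp51 and Dhcr7 encode enzymes of cholesterol synthesis. They were followed by gene symbol through the cell classes of the mouse uterus, and all 8 were found among the 32285 genes counted in each library. None of the 8 takes part in cholesterol uptake, so the uptake genes are described beside them as a separate list. In short, the summed level of the 8 genes was higher in the library with Ltf-driven Cre than in its control in the epithelial, stromal and dendritic gates. The stromal levels lay near those of the RNA outside cells in each library, whose part was not tested. The ratio of the Cre library over control was 4.45 in the dendritic gate and 5.20 in the keratin-rich cells of the epithelial gate, a split chosen after the values were seen, or 4.58 and 3.47 without thinning cells to equal depth. Under a stricter gate the dendritic ratio was 2.91. The ratio was 1.54 in the muscle gate, but 1.06 under the stricter gate, and 3.86 in the macrophage gate, but 1.91 without thinning. In the lymphoid gate it was 0.992, with a counting interval that spanned 1, or 1.33 without thinning and 0.662 under the stricter gate.

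Cholesterol is built from acetyl-CoA through mevalonate, the isoprenoid phosphates, squalene and lanosterol. When sterols in the endoplasmic reticulum run low, the SCAP protein escorts the SREBP transcription factors to the Golgi, where they are cut and freed to switch on most genes of the pathway. The INSIG proteins, as well as oxysterols such as 25-hydroxycholesterol made by Ch25h, hold this switch off. In the uterus, cholesterol serves membranes and is a precursor of steroids, and epithelium, stroma and smooth muscle all carry the pathway.

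Both groups were whole uteri of female mice aged 6 months, 3 mice pooled into 1 library per group. The control group is titled Prickle1 f/f, floxed at the gene for a planar cell polarity protein, and the cKO group Prickle1 f/f Ltf-cre, with the same floxed alleles plus Cre driven by Ltf, the lactoferrin gene of the uterine epithelium. A genotype entry in the labels reads C57BL/6J wild-type for both, which differs from the titles. With 1 library per group there is no replicate check and no test. Intervals are at 95% and cover counting error only. The effect of genotype cannot be told apart from that of the animals, the digestion of the tissue or the library itself.

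The libraries held 45035801 (control) and 57145553 (cKO) unique molecular identifiers (UMIs), from which 3653 and 4950 cells were taken, with medians of 4650 and 5944 UMIs. They shared 5 cell barcodes. Levels are given as CPM, a gene's UMIs scaled to the total of the cells in question. Over all cells Prickle1 itself had 2.65 CPM in control (2.16 to 3.23) and 8.24 in cKO (7.49 to 9.05). In the epithelial gate it had 15 and 16 UMIs, 0.801 and 3.24 CPM. Counts at the 3-prime end need not register a deleted exon, so this gene checks neither label. Interferon-response genes were also far apart between the libraries: the summed level of 6 listed genes was 2121 CPM in control and 81.0 CPM in cKO in the epithelial gate, and lower in cKO in all 6 gates. The part of that difference in the results below was not tested.

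Cells were sorted into gates by their UMIs of Epcam (epithelial), Pdgfra (stromal), Actg2 (muscle), C1qa (macrophage), Flt3 (dendritic), and Cd3e or Ncr1 (lymphoid). A cell needed more UMIs of its own gate than of all others together. Control and cKO held 1002 and 149 epithelial, 681 and 1590 stromal, 303 and 551 muscle, 256 and 134 macrophage, 46 and 148 dendritic, and 159 and 447 lymphoid cells. To compare at matched depth, each cell was thinned at random to 2000 UMIs and shallower cells were left out. Thinning left 916 and 142 epithelial, 606 and 1540 stromal, 111 and 212 muscle, 220 and 120 macrophage, 45 and 146 dendritic, and 150 and 441 lymphoid cells. From here on levels are of thinned UMIs unless said to be unthinned. A share of sparse UMIs can shift between random draws, so unthinned values are given for many, but not all, of those that differ.

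Markers outside the gate genes were checked in each gate. The stromal gate held 11323 CPM of 7 stromal markers in control and 11077 in cKO. Ccr7, the chemokine receptor of dendritic cells that migrate to lymph nodes, was found in 95.6% and 93.8% of dendritic-gate cells. Itgax was found in 2.22% and 1.37% of them, so the gate is mostly a Ccr7-positive population in both libraries. The epithelial gate went against its label in cKO. Its 8 epithelial markers summed to 10150 CPM in control and 4669 in cKO, while stromal markers were at 342 and 3444 CPM and B-cell or plasma-cell markers at 2.18 and 1482 CPM. Of 149 cKO cells, 61 had more UMIs of the keratins Krt8, Krt18 and Krt19 than of the stromal genes Dcn, Col1a1 and Col3a1, against 953 of 1002 control cells. Results for the epithelial gate are therefore given for the whole gate and for these keratin-led cells.

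The summed level of the 8 genes was 172 CPM in the control epithelial gate (153 to 192) and 461 CPM in cKO (386 to 547), a ratio of 2.68 (2.17 to 3.30). In the stromal gate it was 136 CPM (116 to 159) and 298 CPM (279 to 318), a ratio of 2.19 (1.85 to 2.60). These stromal levels lay near those of the RNA outside cells in each library, 116 and 296 CPM, whose part in the result was not tested. Under the alternatives, which include subtracting a fixed share of that RNA, the stromal ratio ran from 1.72 to 2.37. The muscle gate had 266 CPM (202 to 343) and 408 CPM (349 to 474), a ratio of 1.54 (1.14 to 2.10). In each of these 3 gates the ratio's interval lay above 1, but in cKO the epithelial gate held many cells not led by keratins. With a stricter gate of at least 3 gate UMIs per cell the muscle ratio was 1.06.

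Among the immune gates, the dendritic gate had 278 CPM in control (180 to 410) and 1236 CPM in cKO (1112 to 1371), a ratio of 4.45 (2.97 to 6.97). The macrophage gate had 43.2 CPM (26.0 to 67.4) and 167 CPM (119 to 227), a ratio of 3.86 (2.18 to 7.06). Without thinning the macrophage ratio was only 1.91, and with another random draw it was 2.03. The lymphoid gate had 120.0 CPM (84.0 to 166) and 119 CPM (97.4 to 144), a ratio of 0.992 (0.674 to 1.49). Its unthinned levels were 121 and 160 CPM. With at least 3 gate UMIs per cell the dendritic ratio was 2.91 and the lymphoid ratio 0.662. Unthinned ratios in the other gates were 2.40 (epithelial), 2.37 (stromal), 1.60 (muscle) and 4.58 (dendritic).

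**Figure D1:**
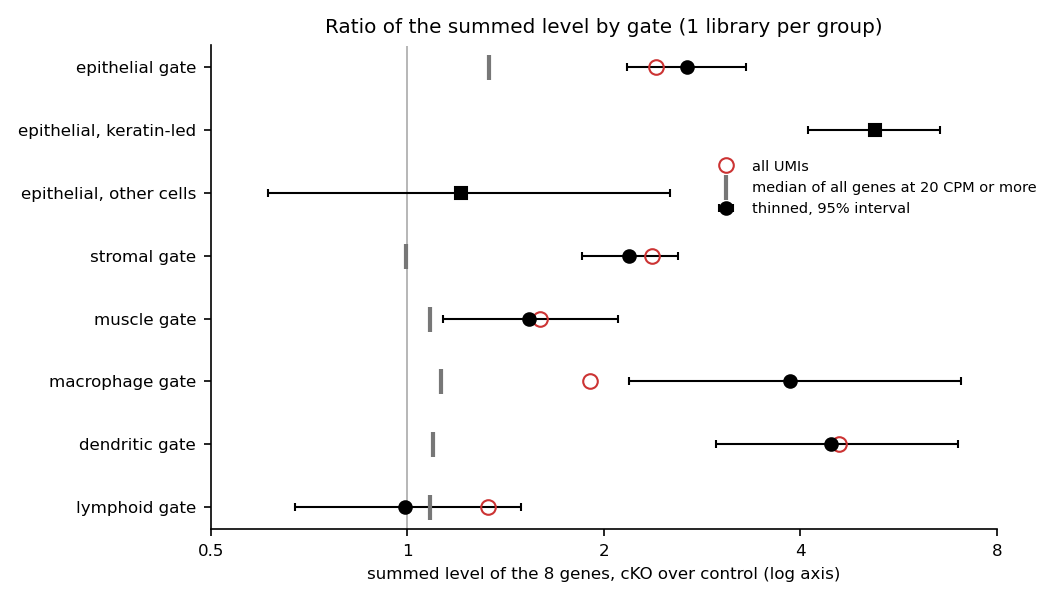
Ratio of the summed level of the 8 genes in cKO over control by gate, on a log axis. Black points are thinned UMIs with 95% counting intervals, squares the keratin-led and other cells of the epithelial gate, open circles all UMIs, and grey bars the median ratio of all genes with a mean level of at least 20 CPM. The dendritic gate at 4.45 and the keratin-led cells at 5.20 lie farthest to the right, and the lymphoid interval spans 1.

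The order of the gates differed between the libraries. In control the summed level ran from macrophage (43.2 CPM) through lymphoid (120.0), stromal (136), epithelial (172) and muscle (266) to dendritic (278). Neighbours in this order had overlapping intervals, except macrophage against lymphoid and epithelial against muscle. In cKO it ran from lymphoid (119 CPM) through macrophage (167), stromal (298), muscle (408) and epithelial (461) to dendritic (1236). There the steps from macrophage to stromal, from stromal to muscle and from epithelial to dendritic were larger than the intervals. The epithelial gate stood to the stromal gate at a ratio of 1.26 in control (1.04 to 1.53) and 1.55 in cKO (1.28 to 1.86). With 1000 UMIs per cell the control ratio was 1.02, so the difference ended there, and without thinning it was 1.73. With keratin-led cells in place of the whole gate, and stromal cells led by the stromal genes, the cKO ratio was 3.03.

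The cells of the epithelial gate were not alike. Keratin-led cells had 173 CPM of the 8 genes in control (154 to 194; 871 thinned cells) and 902 CPM in cKO (735 to 1096; 56 cells), a ratio of 5.20 (4.11 to 6.54), or 3.47 over all UMIs. The other cells of the gate had 144 CPM (76.9 to 247; 45 cells) and 174 CPM (118 to 249; 86 cells), a ratio of 1.21 (0.611 to 2.52). In the keratin-led cells the 8 epithelial markers summed to 10604 and 10607 CPM in control and cKO. Some markers of other cells were also higher there in cKO. The 7 stromal markers were at 28.7 and 196 CPM, and 6 smooth muscle markers at 58.6 and 321 (in cKO mostly Acta2, 268). The 6 dendritic markers were at 62.0 and 125 CPM (in cKO mostly Ccr7, 107). Macrophage markers were lower in cKO, at 58.6 and 26.8 CPM, as were blood endothelial (37.9 and 17.9) and red cell markers (27.0 and 8.93). In each library 2 of the stromal markers were at 0, and of the dendritic ones 1 in control and 3 in cKO. Dcn, Col1a1 and Col3a1 are among the stromal markers and entered the keratin split. The part of such cells in the ratio was not tested. Of the 131 member UMIs of the cKO gate, 101 lay in the 56 keratin-led cells. All keratin-led cells had a median of 24120 unthinned UMIs in cKO and 6577 in control. Leaving out cells with doublet scores above 0.25 gave a ratio of 2.68 for the whole epithelial gate and 4.49 for the dendritic gate.

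The 8 genes were next read in the order of the pathway, starting with Hmgcs1 and Idi1 of the early, mevalonate part. Hmgcs1 (chromosome 13, 119690379 to 119708260, plus strand, GRCm38) encodes the cytosolic synthase that makes HMG-CoA on the way to mevalonate. Its level in control and cKO was 50.8 and 88.0 CPM in the epithelial, 35.5 and 68.8 in the stromal, 85.6 and 153 in the muscle, 25.0 and 58.3 in the macrophage, 100.0 and 353 in the dendritic, and 60.0 and 52.2 in the lymphoid gate. The ratio was 1.73 in the epithelial (1.07 to 2.72), 1.94 in the stromal (1.39 to 2.76), 1.79 in the muscle (1.06 to 3.16) and 3.53 in the dendritic gate (1.79 to 7.93). In keratin-led cells the ratio of Hmgcs1 was 2.74 (1.47 to 4.79), and in the other cells of the epithelial gate it was 0.654 (0.232 to 1.91). Its interval spanned 1 in the lymphoid (0.494 to 1.59) and macrophage gates (0.984 to 5.68).

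Idi1 (chromosome 13, 8885501 to 8892451, plus strand) encodes the isomerase that turns isopentenyl diphosphate into dimethylallyl diphosphate. It had 26.7 and 127 CPM in the epithelial, 9.90 and 53.9 in the stromal, 58.6 and 80.2 in the muscle, 4.55 and 41.7 in the macrophage, 88.9 and 658 in the dendritic, and 13.3 and 19.3 in the lymphoid gate. Its dendritic ratio was 7.40 (3.68 to 17.4), from 8 and 192 thinned UMIs, or 5.13 unthinned. The macrophage ratio was 9.17 (1.95 to 86.0), from 2 and 10 thinned UMIs. The ratio was 5.44 in the stromal gate (3.03 to 10.7) and 4.74 in the epithelial gate (2.99 to 7.44). In keratin-led cells it was 10.4 (6.42 to 16.6), or 5.59 unthinned. In the control macrophage gate 47.9% of the unthinned Idi1 UMIs lay in 1 cell, and the unthinned ratio there was 1.47. A neighbouring copy, Idi2, is annotated beside Idi1, and how reads shared by such genes were counted is not given in the sources used here.

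Fdps (chromosome 3, 89093588 to 89101959, minus strand) encodes farnesyl diphosphate synthase, the branch point to prenylated proteins, dolichol and ubiquinone. Fdps had 14.7 and 42.3 CPM in the epithelial gate, a ratio of 2.87 (1.32 to 5.85; 6.34, 2.84 to 13.2, in keratin-led cells), and 1.65 and 11.7 CPM in the stromal gate, from 2 and 36 UMIs, a ratio of 7.08 (1.82 to 60.7). The unthinned stromal ratio was 3.49. Its other levels were 13.5 and 18.9 CPM in the muscle, 2.27 and 8.33 in the macrophage, 22.2 and 17.1 in the dendritic, and 16.7 and 4.54 in the lymphoid gate, from 8 or fewer UMIs each, and no difference was detectable there. Fdft1 (chromosome 14, 63145150 to 63179578, minus strand) encodes squalene synthase, the first enzyme committed to sterols. In the stromal gate it had 1 thinned UMI in control and 58 in cKO, a ratio of 22.8 (3.94 to 917). Over all UMIs it had 4.23 and 20.4 CPM, a ratio of 4.83. The epithelial gate had 36.6 and 59.9 CPM (ratio 1.64, 0.901 to 2.82), and its unthinned levels were 49.9 and 47.8 CPM, so no difference in Fdft1 was detectable in the whole gate. Its ratio in keratin-led cells was 3.02 (1.53 to 5.52), and 1.37 without thinning. In the dendritic gate Fdft1 had 0 thinned UMIs in control and 14 in cKO, at least 1.44-fold higher against a floor of 3 counts in control (lower limit of the counting interval 1.02), and 8.72 and 27.6 CPM unthinned. The muscle gate had 22.5 and 33.0 CPM of Fdft1, the macrophage gate 2.27 and 8.33, and the lymphoid gate 10.0 and 12.5.

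Sqle (chromosome 15, 59315077 to 59331192, plus strand) encodes squalene epoxidase, a further control point of the pathway. In the stromal gate it had 59.4 CPM in control (46.5 to 74.8) and 63.6 CPM in cKO (55.0 to 73.2), a ratio of 1.07 (0.814 to 1.42). The interval for Sqle thus spanned 1 in stroma despite its 72 and 196 UMIs, and its unthinned stromal ratio was 1.31. It had 14.7 and 28.2 CPM in the epithelial, 49.5 and 73.1 in the muscle, 2.27 and 4.17 in the macrophage, 11.1 and 65.1 in the dendritic, and 3.33 and 6.80 in the lymphoid gate. In keratin-led cells the ratio of Sqle was 3.11 (0.930 to 8.27), and over the whole epithelial gate 1.91 (0.750 to 4.33). The dendritic values come from 1 and 19 thinned UMIs, a ratio of 5.86 (0.931 to 243). Without thinning the dendritic gate had 3 and 127 UMIs, 5.23 and 55.7 CPM. In control, the stromal level of Sqle lay above the epithelial one, while Idi1, Fdps and Fdft1 were higher in the epithelial gate.

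Lss, Cyp51 and Dhcr7 act after squalene. Lss (chromosome 10, 76531588 to 76557138, plus strand) encodes the cyclase that makes lanosterol. It was sparse, with 7 or fewer thinned UMIs in every gate and library but the cKO stromal gate, which had 17. In the stromal gate Lss had 3.30 and 5.52 CPM, a ratio of 1.67 (0.546 to 6.83). Its unthinned levels were 2.51 and 15.2 CPM in the epithelial gate and 1.59 and 7.41 in the stromal gate, ratios of 6.05 and 4.67. The keratin-led cells had 2 and 0 thinned UMIs of Lss, and an unthinned ratio of 8.40. Cyp51 (chromosome 5, 4081145 to 4104746, minus strand) encodes the cytochrome P450 that demethylates lanosterol. It had 21.8 and 91.5 CPM in the epithelial, 22.3 and 71.8 in the stromal, 27.0 and 30.7 in the muscle, 2.27 and 37.5 in the macrophage, 55.6 and 89.0 in the dendritic, and 3.33 and 13.6 in the lymphoid gate. Its ratio was 4.19 in the epithelial gate (2.46 to 7.04), 8.38 in keratin-led cells (4.68 to 14.6; 4.70 unthinned) and 3.22 in the stromal gate (2.15 to 5.00). Cyp51 and Idi1, like Hmgcs1 and Fdps, therefore had intervals above 1 in both the epithelial and the stromal gate. The muscle and dendritic ratios of Cyp51 were 1.13 and 1.60, with intervals that spanned 1, and 2.80 and 3.24 without thinning. The macrophage values rest on 1 and 9 UMIs.

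Dhcr7 (chromosome 7, 143823145 to 143848410, plus strand) encodes the reductase of the last step, from 7-dehydrocholesterol to cholesterol. It had 10 and 6 thinned UMIs in the epithelial gate, 5.46 and 21.1 CPM, a ratio of 3.87 (1.16 to 11.8), and 9 and 4 in keratin-led cells, a ratio of 6.91 (1.56 to 24.8), or 4.21 unthinned. Its stromal level was 3.30 and 3.57 CPM, a ratio of 1.08 (0.321 to 4.66). It had 2 or fewer thinned UMIs in each library of the remaining gates. In the control dendritic gate it had 0 UMIs, which allows up to 33.3 CPM at the thinned depth, and 0 without thinning, which allows up to 5.23 CPM.

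**Figure D2:**
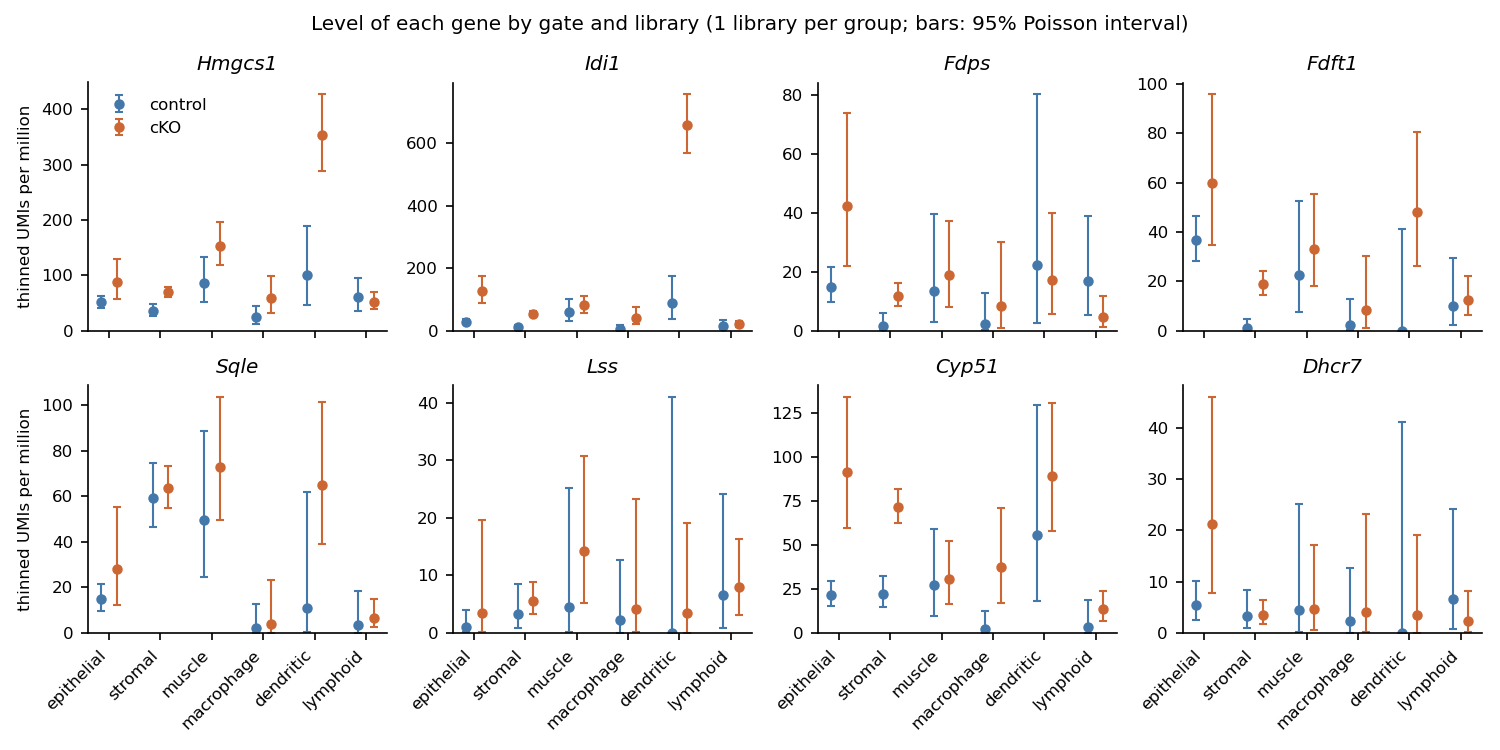
Level of each gene (y axis, CPM of thinned UMIs) by gate (x axis) in control (blue) and cKO (orange), with 95% Poisson intervals. Each panel has its own scale. Idi1 and Hmgcs1 peak in the cKO dendritic gate (658 and 353 CPM), and Sqle is about level between the libraries in the stromal gate.

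Against all genes, a gene was counted where the library with the higher level had at least 10 thinned UMIs, and was past the limit when the CPM differed by at least 2-fold. The library with more cells reaches 10 UMIs at a lower level, so sparse genes pass more readily through control in the epithelial and macrophage gates and through cKO in the stromal, muscle, dendritic and lymphoid gates. In the epithelial gate 3 of 5 counted members were higher in cKO (Idi1, Cyp51, Fdps), against 23.3% of 7616 genes, and 0 were lower, against 18.5%. In its keratin-led cells all 5 counted members (Hmgcs1, Idi1, Fdps, Fdft1, Cyp51) were higher, against 9.87% of 5823 genes, and 0 lower, against 18.6%. Unthinned, Fdft1 was within the limit there at 1.37. In the stromal gate 4 of 8 were higher (Fdft1, Fdps, Idi1, Cyp51), against 7.33% of 9981 genes, and 0 lower, against 4.6%. Of these, Fdft1 and Fdps were counted through cKO alone, with 1 and 2 control UMIs, as were 73.2% of all genes called higher in that gate. Medians were taken over genes with a mean level of at least 20 CPM over both libraries, whichever was higher. The median ratio of the 6 members at that level was 2.34 in the epithelial gate, and of the 4 in the stromal gate 2.50, where the median of all genes was 1.33 and 0.997.

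In the muscle gate 0 of 5 counted members were past the limit, against 14.2% higher and 4.81% lower of 5764 genes. In the macrophage gate both counted members, Hmgcs1 and Idi1, were higher, beside 11.1% of 4740 genes (7.78% lower). Idi1 was counted through cKO alone, with 2 and 10 UMIs. Without thinning both were within the limit, at ratios of 1.63 and 1.47, and the Hmgcs1 interval spanned 1. In the dendritic gate 3 of 5 were higher (Idi1, Sqle, Hmgcs1), beside 22% of 3669 genes, and 0 lower, beside 5.18%. All 5 were counted through cKO alone, with 9 or fewer control UMIs from 45 cells, as were 96.5% of the genes called higher there, so nothing is read from this count. In the lymphoid gate 1 of 4, Cyp51, was higher with 1 and 12 UMIs, and so through cKO alone, beside 11.9% of 7410 genes (2.74% lower). Its ratio of 4.08 had an interval that spanned 1 (0.604 to 174), and without thinning it was 1.89, within the limit. At a mean level of at least 20 CPM the median over 5 members was 3.53 in the dendritic and 1.47 in the muscle gate, with 1.09 and 1.08 over all genes. In the dendritic gate Fdft1 and Sqle, with 0 and 1 control UMIs, reached that level through cKO alone.

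Shares of cells with a UMI of the members were counted at matched depth. In the dendritic gate 26.7% of control cells (14.6 to 41.9) and 71.9% of cKO cells (63.9 to 79.0) had at least 1 UMI of the 8 genes after thinning. Cells with at least 2 different members made up 8.89% and 33.6%. In keratin-led cells these shares were 22.5% and 53.6% for 1 member, and 5.97% and 35.7% for 2. Stromal shares were 20.6% and 32.6%, then 1.65% and 9.35%, while in the lymphoid gate they were 20.7% and 19.5%, then 2.67% and 3.17%. The lowest share was 7.73%, in control macrophages. Summed levels near or below those outside cells (116 CPM in control, 296 in cKO) were found in the macrophage, lymphoid and stromal gates of both libraries, so shares in these gates are not read as expression. Without thinning, 63.0% and 93.2% of dendritic cells had a UMI, at median depths of 11798.5 and 14108.5 UMIs, and 62.1% and 81.7% of stromal cells. Member UMIs were not spread evenly: the 10% of cells with the most held 61.2% (61 cells) and 59.8% (154 cells) of them in the stromal gate, and 60.0% (4 cells) and 39.1% (15 cells) in the dendritic gate.

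**Figure D3:**
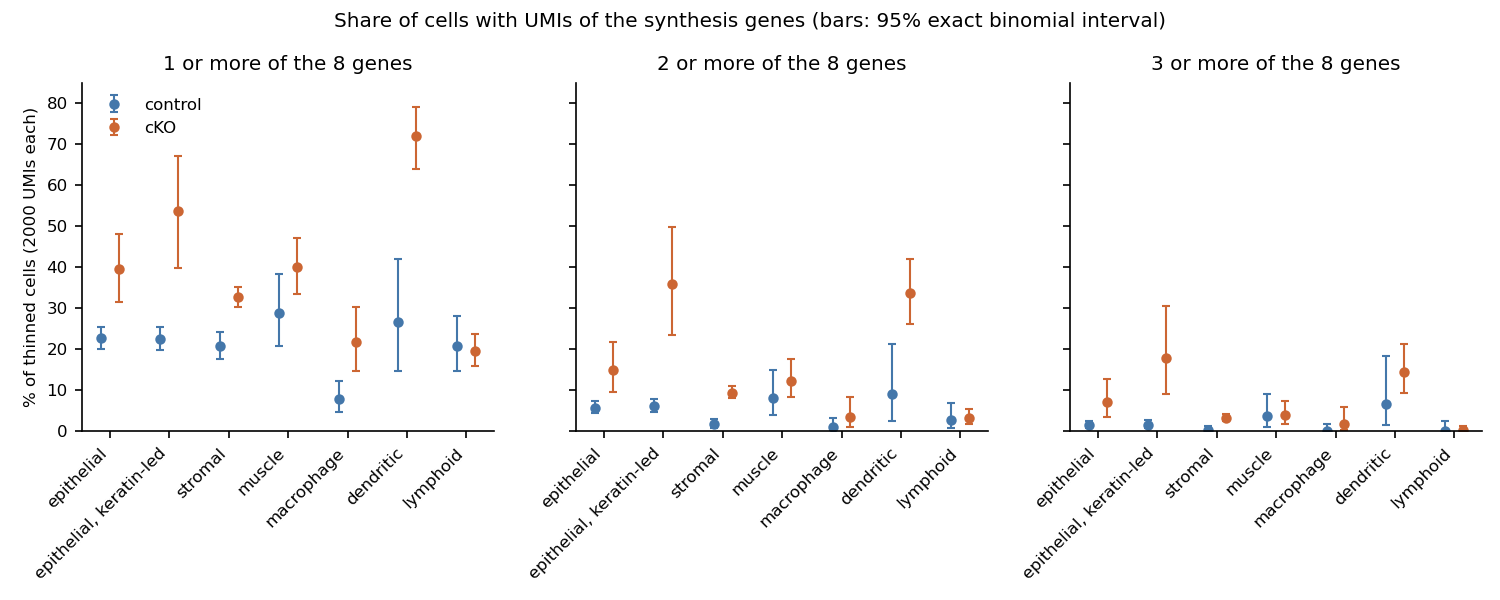
Share of thinned cells (y axis, percent) with UMIs of at least 1, 2 or 3 of the 8 genes by gate (x axis) in control (blue) and cKO (orange), with exact binomial 95% intervals. The cKO points lie above control in the dendritic gate (71.9% against 26.7% for 1 gene) and in keratin-led cells, and are level in the lymphoid gate.

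RNA outside cells also differed. In barcodes with at most 100 UMIs the 8 genes summed to 116 CPM in control and 296 CPM in cKO. In control the macrophage gate lay below this, at 43.2 CPM, the lymphoid and stromal gates near it, at 120.0 and 136, and the epithelial, muscle and dendritic gates above it, at 172, 266 and 278. In cKO the lymphoid and macrophage gates lay below it, at 119 and 167 CPM, the stromal gate near it, at 298, and the muscle, epithelial and dendritic gates above it, at 408, 461 and 1236. Markers of other cells moved in some gates as well. Red cell markers were at 27.0 and 1283 CPM in the muscle, 4.55 and 850.0 in the macrophage, and 0 and 435 in the dendritic gate. The 3 mast cell markers were at 18.2 and 271 CPM in the macrophage gate and 189 and 332 in the dendritic gate. In the dendritic gate, epithelial markers were at 66.7 and 54.8 CPM, stromal markers at 55.6 and 226 CPM, and all 3 B-cell or plasma-cell markers at 0. The part of these cells and of free RNA in the results was not tested.

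Of the other 13 synthesis enzymes in the list, 4 of 7 counted were past the 2-fold limit upward in the epithelial gate (23.3% of all genes), 5 of 11 in the stromal (7.33%), 4 of 5 in the dendritic (22%), 2 of 3 in the macrophage (11.1%), 2 of 7 in the lymphoid (11.9%) and 1 of 3 in the muscle gate (14.2%). Of those called higher, 4 in the stromal and 1 in the lymphoid gate were counted through cKO alone. In the muscle and dendritic gates that holds for every gene called higher in this and the following lists, so nothing is read from those counts. These shares of all genes are the ones to read the counts of the further lists against. In keratin-led cells 3 of 4 were higher (9.87% of all genes). None of those counted was past it downward in the 6 gates. At a mean level of at least 20 CPM the median log2 ratio of the list was 1.45 in the epithelial (7 genes), 0.50 in the stromal (5) and 1.47 in the dendritic gate (6), where all genes had medians of 0.41, -0.0045 and 0.13. The medians of the lists below use the same limit. Lbr encodes a sterol reductase that is also an inner nuclear membrane protein. It had the highest lower interval limit in the epithelial gate among listed genes with 20 or more thinned UMIs in a library. Its levels there were 15.3 and 123 CPM (ratio 8.06, 4.77 to 13.8). Its unthinned ratio there was 3.31, and in keratin-led cells it was 4.95, with a lower interval limit of 1.79, or 2.26 unthinned.

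Genes that control the pathway were read next. Of the 7 SREBP control genes, 0 of 6 counted were past the limit in the epithelial gate. In each of the other gates 1 was, upward, of 7 counted in the stromal, 4 in the muscle, 2 in the macrophage, 2 in the dendritic and 6 in the lymphoid gate. In keratin-led cells 2 of 6 were higher and 2 lower (9.87% and 18.6%). The list's median log2 ratio was 0.53 in the epithelial, 0.26 in the stromal and -0.28 in the dendritic gate. Srebf2, which encodes the SREBP of the sterol genes, had 23.9 and 49.7 CPM in the stromal gate (ratio 2.08, 1.39 to 3.20). It had 100.0 and 202 CPM in the dendritic gate (ratio 2.02, 0.995 to 4.64) and 41.5 and 59.9 CPM in the epithelial gate (1.44, 0.799 to 2.46), with intervals that spanned 1. Its keratin-led ratio was 2.19 (1.01 to 4.27), or 1.48 unthinned. Insig1, itself switched on by SREBP, had 44.2 and 88.0 CPM in the epithelial (ratio 1.99, 1.22 to 3.15; 2.31, 1.11 to 4.38, in keratin-led cells) and 66.0 and 103 in the stromal gate (1.56, 1.22 to 2.02). In the dendritic gate Insig1 had 33.3 and 51.4 CPM (1.54, 0.436 to 8.30).

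Of the 11 uptake and lysosomal release genes, 7 were counted in the epithelial gate, and 4 were higher and 1 lower past the limit (23.3% and 18.5% of all genes). Of 10 counted in stroma, 3 were higher, all 3 through cKO alone, and 1 lower (7.33% and 4.6%), and of 5 in the dendritic gate 2 and 1 (22% and 5.18%). The muscle gate had 1 of 7 higher, the macrophage gate 1 of 6 and the lymphoid gate 0 of 7, with 0 lower. In keratin-led cells 2 of 7 were higher and 2 lower. The log2 medians of the list were 1.45, -0.50 and 0.37 in the epithelial, stromal and dendritic gates. Vldlr, a lipoprotein receptor, was lower in the epithelial gate, with 87.3 and 35.2 CPM (ratio 0.403, 0.190 to 0.761), and was higher in the stromal gate, with 165 and 269 CPM (1.63, 1.40 to 1.92). Its keratin-led ratio was 0.299 (0.0610 to 0.890), from 156 and 3 UMIs. Without thinning the epithelial ratio was 0.686 and the keratin-led one 0.642. Npc2, which moves cholesterol out of lysosomes, had 1344 and 476 CPM in the dendritic gate (ratio 0.354, 0.275 to 0.456), the 1 lower gene of that gate.

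On the side of storage, oxysterols and efflux, 2 of 5 counted genes were higher in the epithelial gate and 0 lower, and in the stromal gate 3 of 9 were higher, 1 of them through cKO alone, and 3 lower, with log2 medians of 0.59 and -0.18. In keratin-led cells 0 of 3 were higher and 2 lower. Apoe, the lipid carrier, had 33.3 and 187 CPM in the whole epithelial gate (ratio 5.60, 3.80 to 8.23), in which stromal markers were at 342 and 3444 CPM. In the keratin-led cells alone it had 11.5 and 17.9 CPM, from 20 and 2 UMIs (1.56, 0.176 to 6.40), with an unthinned ratio of 0.997. The stromal gate had 493 and 189 CPM (0.382, 0.340 to 0.429). Ch25h had 9.08 and 25.0 stromal CPM (2.75, 1.46 to 5.75). In the macrophage gate, where Ch25h was highest, it had 132 and 125 CPM, a ratio of 0.948 (0.589 to 1.50). The muscle, macrophage, dendritic and lymphoid gates had 0 of 4, 1 of 7, 1 of 4 and 0 of 4 counted past the limit upward and 0 downward.

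Fatty acid synthesis genes, served by the sister factor SREBP1, were higher in 3 of 4 counted in the epithelial gate. Of these 3, 1 was counted through cKO alone. In the stromal gate 2 of 8 were higher and 1 was lower. The muscle gate had 1 higher and 1 lower of 6, and the macrophage, dendritic and lymphoid gates had 0 of 1, 0 of 1 and 0 of 4 past the limit. The list's log2 medians were 1.78 in the epithelial and 0.37 in the stromal gate. Scd2, a stearoyl-CoA desaturase, had 103 and 345 CPM in the epithelial gate (ratio 3.34, 2.59 to 4.29) and 65.2 and 192 in the stromal gate (2.95, 2.33 to 3.78), with unthinned ratios of 2.23 and 5.08. Its keratin-led ratio was 7.56 (5.77 to 9.83), or 3.24 unthinned. Both counted genes of the fatty acid list, Acly and Scd2, were higher in keratin-led cells. In the isoprenoid branch, 1 of 3 counted genes was higher and 1 lower in the epithelial gate, and 0 of 5 in either direction in the stromal gate. In keratin-led cells 0 of 2 were past the limit. The muscle, macrophage, dendritic and lymphoid gates had 1 of 2, 0 of 1, 0 of 1 and 2 of 4 higher and 0 lower. Both called higher in the lymphoid gate were counted through cKO alone, so nothing is read from them. The summed fatty acid list had a ratio of 0.805 (0.459 to 1.47) in the dendritic gate, where the 8 enzymes had 4.45. In the epithelial gate the ratios were 3.49 (2.92 to 4.17) and 2.68.

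**Figure D4:**
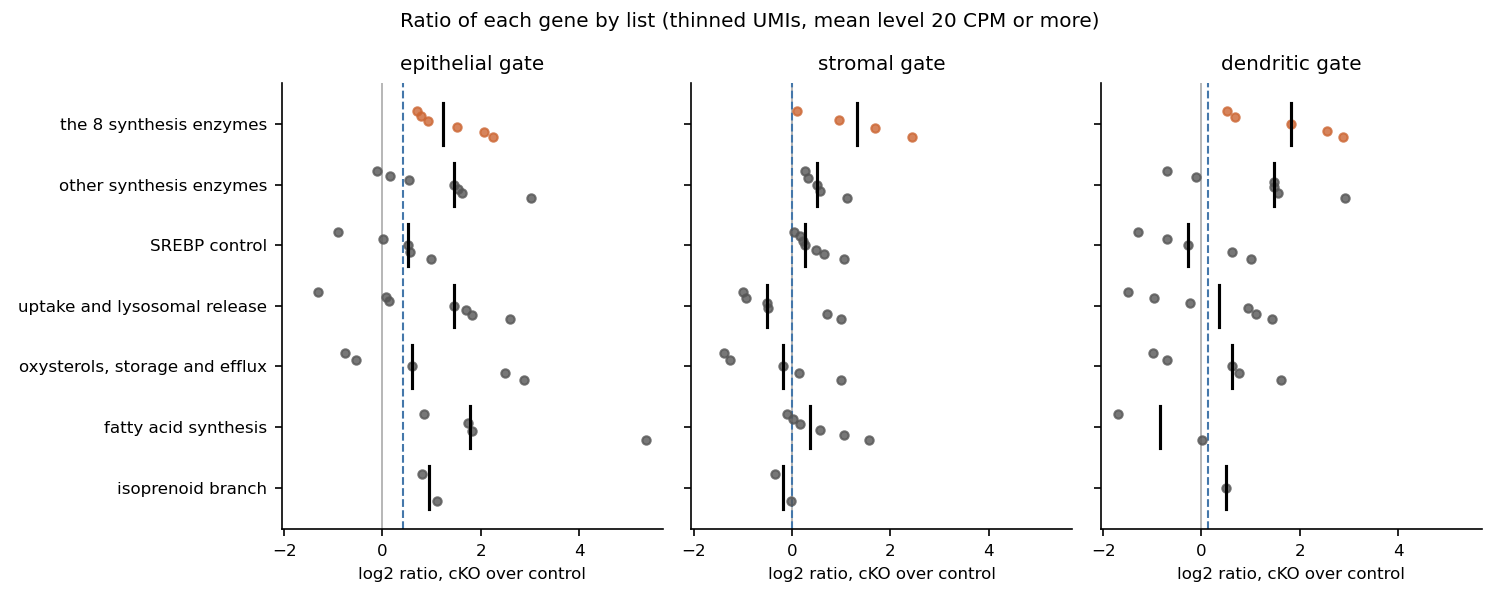
Log2 ratio of cKO over control for each gene (points) with a mean level of at least 20 CPM, by list (rows), in the epithelial, stromal and dendritic gates, from thinned UMIs. Black bars are list medians, the dashed line is the median of all genes at that level, and a gene with 0 UMIs in a library is drawn at the bound set by 3 counts. The 6, 4 and 5 of the 8 enzymes drawn lie right of 0, while uptake genes lie on both sides.

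Over the 12 combinations of gate and library, levels of the members were compared on a log2 scale with 10 CPM added. This is a description of 12 points that share 2 libraries. Idi1 (r = 0.86), Hmgcs1 (0.83), Cyp51 (0.76) and Fdft1 (0.71) followed the mean of the other 7 most closely, and sparse Lss (0.12) and Dhcr7 (0.35) least. Against the mean of the members, Srebf2 had r = 0.56, Insig1 0.050 and Ch25h -0.41. Of 3740 other genes the closest were Myl12a (0.81), Rras2 (0.79), Pak1ip1 (0.78), Mthfd2 (0.76) and Nr4a2 (0.75).

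Because several members were high in the same gates, their promoters were searched for the sites known for this pathway: the sterol regulatory element, to which SREBP binds, and the CCAAT box of its partner NF-Y. RefSeq windows of 300 bases around the start (GRCm38.p6) were found for 5 of the 8 genes (Hmgcs1, Idi1, Lss, Cyp51 and Dhcr7). CCAAT, on either strand, was in all 5, and in 41.1% of 27025 genes. TCACNCCAC, on either strand, was in Hmgcs1 alone, and in 1.44% of genes. The looser CACNNCAC, which overlaps it, was in Hmgcs1 and Dhcr7, and in 18.2% of genes. Among the other listed synthesis enzymes CCAAT was in 10 of 11 and TCACNCCAC in 0. The sterol element of Hmgcs1 and 1 CCAAT match per gene (of 4 in Hmgcs1, and of 2 in Idi1 and in Dhcr7) are shown with the match in capitals, 5′ to 3′ on the strand of the gene. ATTGG is CCAAT read on the other strand. Positions count from the RefSeq start, for Dhcr7 the third of its starts, and a match is a match of letters, not a shown binding site.
Hmgcs1 sterol element (chr13:119690204-119690233, plus strand, -137 to -129): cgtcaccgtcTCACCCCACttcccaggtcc
Hmgcs1 CCAAT box (chr13:119690294-119690323, plus strand, -45 to -41): tccccgcctctcATTGGctgaaagcggatc
Idi1 CCAAT box (chr13:8885549-8885578, plus strand, -45 to -41): tgcctccagctgATTGGcgagcccgggcat
Lss CCAAT box (chr10:76531531-76531560, plus strand, -62 to -58): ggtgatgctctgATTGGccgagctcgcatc
Cyp51 CCAAT box (chr5:4104709-4104738, minus strand, -29 to -25): cgctgtccgccaCCAATctggtcctgagat
Dhcr7 CCAAT box (chr7:143830117-143830146, plus strand, -85 to -81): tcactgccttcaCCAATcacaggacgcagc

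The CCAAT match was thus in the windows of Hmgcs1, Idi1 and Cyp51, whose epithelial and stromal intervals lay above 1, and of Lss and Dhcr7, which had few UMIs. The longer sterol match was in the window of Hmgcs1, with ratios of 1.73 and 1.94 in the epithelial and stromal gates. It was in that of neither Idi1 (4.74 and 5.44) nor Cyp51 (4.19 and 3.22). A link between matches and ratios was not tested.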

How the data were processed

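Single-cell libraries were made from 1 pool of 3 uteri per group. The deposited values are raw UMI counts for each gene in each barcode. Per the file headers, the authors used Cell Ranger 4. The submitters' processing notes name Cell Ranger 6.1.1 and build mm10, and the annotation is not given in the sources used here. How reads that map to several genes were treated is not given in the sources used here. The other deposited columns are barcodes and gene names with no values.

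Barcodes with at least 500 genes and at most 20% mitochondrial UMIs were kept. Doublets were scored by comparison with simulated pairs, and leaving out scores over 0.25 (42 control and 60 cKO cells) was an alternative, so doublets stayed in the main values. Gated cells were thinned to 2000 UMIs without replacement (seed 11). UMIs were summed, with exact Poisson intervals for levels, conditional binomial intervals for ratios and Clopper-Pearson intervals for shares, at a level of 95%. A count of 0 was read as up to 3 counts. A gene was counted when the library with the higher level held 10 thinned UMIs or more, and the limit was 2-fold. Medians use genes with a mean level of at least 20 CPM, a limit set after values were seen. With 1 library per group no test was run. On simulated counts the steps were checked on the stromal gate.

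The members, markers and gene lists (other synthesis enzymes, SREBP control, uptake and lysosomal release, oxysterols with storage and efflux, fatty acid synthesis, isoprenoid branch, interferon response, cycling, dissociation stress) were chosen with earlier results of these data known. All 8 members are given. Of the other lists, Insig1, Srebf2 and Ch25h are named whatever their values, with the 3 largest rises and 3 largest falls in the epithelial gate ranked on the interval limit closest to 1, where a gene had 20 or more UMIs. Over all lists these were Lbr, Apoe and Pcna, and Rsad2, Ifit1 and Oasl1; within the sterol and lipid lists, Scd2 followed Lbr and Apoe, and Vldlr was the only fall with an interval below 1. Npc2 and Pmvk were named after their values were seen, and the keratin split, a second random draw, a scaling by the median ratio and 3 further alternatives were added after seeing the data. Of 32285 gene identifiers, 32158 were found in GENCODE M21 (GRCm38). Some listed genes are not reported here by name. Python 3.11.15, numpy 2.4.6, scipy 1.17.1, scanpy 1.11.5 and matplotlib 3.10.9 were used.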

Additional observations from a re-analysis of the deposited data

Results flagged for a closer look

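Cell-free barcodes enter the comparisons of gates only in an alternative that subtracts a fixed share of their RNA. They held more RNA of the synthesis enzymes in cKO than in control. The ratio was 2.55 for the sum of the 8 genes (2.22 to 2.93), 4.51 for Idi1 (3.23 to 6.43), 3.60 for Sqle (2.40 to 5.53), 3.38 for Lss (1.03 to 14.4), 2.80 for Cyp51 (1.97 to 4.03) and 2.33 for Hmgcs1 (1.77 to 3.08). Fdps (1.45), Fdft1 (1.26) and Dhcr7 (0.987) had intervals that spanned 1. Sqle, level in the stromal gate at a ratio of 1.07, was thus among the higher genes outside cells.

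Cells that met no gate, 1206 in control and 1931 in cKO, also had more UMIs of these genes in cKO. The ratio was 1.43 for the sum (1.23 to 1.66), 1.90 for Cyp51 (1.26 to 2.94), 1.40 for Idi1 (1.04 to 1.90), 1.38 for Hmgcs1 (1.07 to 1.80) and 4.45 for Dhcr7 (1.05 to 39.9), the last from 2 and 16 UMIs and at 2.10 without thinning. Intervals spanned 1 for Lss (1.58), Sqle (1.39), Fdps (1.32) and Fdft1, which was at 0.890 (0.527 to 1.53). With 1 library per group these differences were not tested.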

How the results depend on the processing

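No paired analysis was possible because each group is 1 library and no result comes from a test. Under the alternatives, 105 values of the 8 summed comparisons moved by less than the counting interval and 15 by more, and 0 called values changed sign. For single genes, 625 stayed within it and 17 moved. On the log2 scale, asking for at least 3 gate UMIs gave 1.90 in place of 1.42 in the epithelial, 0.081 in place of 0.62 in the muscle, 1.54 in place of 2.15 in the dendritic and -0.60 in place of -0.011 in the lymphoid gate. It gave 0.62 in place of 0.34 for epithelial against stromal cells in control and 1.47 in place of 0.63 in cKO. With 1000 UMIs per cell the stromal value was 0.78 in place of 1.13, and epithelial against stromal cells in control stood at 0.024. Without thinning the latter was 0.79 and the macrophage value 0.93 in place of 1.95. Added after seeing the data, another random draw gave 1.02 for macrophages, the keratin split 2.38 for epithelial cells and 1.60 for epithelial against stromal cells in cKO, and scaling by the median ratio of all genes with a mean level of at least 20 CPM gave 1.01 for epithelial cells and 0.74 for epithelial against stromal cells in control. The cause was not tested. Thinned levels rest on few UMIs in the macrophage (19 and 40), control dendritic (25) and lymphoid gates (36 and 105), which limits what can be told there.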

Other observations

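Lists kept beside the sterol genes differed between the libraries in their own way. Of the 6 interferon-response genes, which include Rsad2, Ifit1 and Oasl1 with antiviral roles, 6 were past the 2-fold limit downward in cKO in the epithelial (18.5% of all genes), stromal (4.6%) and dendritic gates (5.18%), 5 of 6 counted in the macrophage (7.78%), 5 of 5 in the lymphoid (2.74%) and 4 of 4 in the muscle gate (4.81%). In the epithelial gate Rsad2 had 751 and 3 thinned UMIs, Ifit1 659 and 3, and Oasl1 534 and 2. None of the counted sterol enzymes was past the limit downward in the 6 gates.

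Of the 6 cycling genes, the 1 counted in the epithelial gate was higher (23.3% of all genes), as were 1 of 2 in the macrophage (11.1%) and both counted in the dendritic gate (22%), these 3 through cKO alone, so that nothing is read from them, and 2 of 3 were lower in the lymphoid gate (2.74%). The stromal and muscle gates had 1 counted gene each, and it was within the limit. Pcna, a DNA replication clamp, had 102 and 64 thinned UMIs in the epithelial gate, a ratio of 4.05 (2.91 to 5.59), and 3.29 (1.86 to 5.52) in keratin-led cells. Of the 5 dissociation-stress genes, 1 of 5 counted was higher in the epithelial (23.3%), stromal (7.33%) and macrophage gates (11.1%) each, and 1 of 4 in the dendritic gate (22%), through cKO alone. In the macrophage gate 1 of 5 was lower (7.78%), in the muscle gate 3 of 5 (4.81%), and in the lymphoid gate 0 of 4 were past the limit.

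Pmvk, a kinase of the mevalonate part of the pathway, was lower in cKO in cells of no gate, with 36 and 25 thinned UMIs, a ratio of 0.386 (0.222 to 0.661). In the stromal gate Pmvk was higher in cKO, at 4.33 (1.06 to 38.0), or 2.49 without thinning. Its keratin-led ratio was 5.46 (2.67 to 10.5), from 37 and 13 thinned UMIs, or 4.83 unthinned. This gene was chosen after its values were seen.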
